A study of Homo sapiens with 16 samples.

Results

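The angiomotin genes AMOT, AMOTL1 and AMOTL2 and the long non-coding RNA LINC02700, which lies upstream of AMOTL1 on the same strand, were followed in SW480 cells with lowered or raised Ajuba. They are 4 of the 66023 genes in the count table and were found by their GENCODE symbols. AMOTL1 and LINC02700 were selected on their read counts in these same libraries, which ran against the amount of Ajuba, so their values are given as a description with no test. AMOT and AMOTL2 were included as the rest of the family. SW480 is an epithelial line from a human colon adenocarcinoma, and poly(A) RNA of 6 lines derived from it was sequenced in 16 libraries. Parental (n = 2) is untransduced SW480, whereas the other lines were made with lentivirus and kept under puromycin selection. ShScrambled (n = 2) carries a non-mammalian control hairpin, shAjuba1 (n = 3) a hairpin against the coding region of AJUBA, and shAjuba2 (n = 3) a hairpin against a non-coding region of the transcript. Ajuba OE (n = 3) expresses Ajuba from a CMV-driven construct, and Control (n = 3) carries that construct with the Ajuba sequence removed. Each construct is represented by 1 line, so the construct and the line cannot be told apart. The study calls the replicates of a line technical, so each p-value measures only the spread between these samples.

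Angiomotins are scaffold proteins of cell junctions and the actin cytoskeleton. They bind YAP and TAZ, the transcriptional coactivators at the end of the Hippo pathway, hold them out of the nucleus, and also activate the LATS kinases that phosphorylate YAP. In epithelia they join the Crumbs and PALS1-PATJ polarity complex at tight junctions. Ajuba is a LIM domain protein of adherens junctions that binds LATS kinases and lowers their activity, so angiomotins and Ajuba act on the same kinases. AMOTL2 is itself a widely used target gene of YAP and the TEAD factors, the DNA-binding partners of YAP and TAZ. No role of LINC02700 is assumed here.

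All 4 genes were placed with GENCODE on GRCh38. AMOT (ENSG00000126016) spans chrX:112774503-112840831 on the minus strand with 8518 bases of merged exon, and AMOTL2 (ENSG00000114019) spans chr3:134355347-134375479 on the minus strand with 6479 bases. AMOTL1 (ENSG00000166025) spans chr11:94706431-94876748 on the plus strand with 10030 bases of merged exon. LINC02700 (ENSG00000255666) spans chr11:94638045-94652884 on the plus strand with 3087 bases of merged exon, and its end lies 53547 bases before the first base of AMOTL1. The counts are per gene, so the isoforms of AMOT that do and do not bind YAP were not separated. LINC02700 shares 280 exon bases with another lncRNA on the same strand, ENSG00000233536, and reads from the shared part cannot be assigned to either gene. AMOTL1 shares 496 exon bases with the antisense lncRNA ENSG00000256469, which had 0 to 5 counts in every library. AMOTL2 shares 187 exon bases with the pseudogene RPL39P5, which had 4 to 22 counts.

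The promoters of the genes that ran against Ajuba are shown because the TEAD factors act through a short core motif, GGAATG or CATTCC on either strand, and 1 of these genes is a textbook TEAD target. The sequences are from RefSeq on GRCh38.p14, 250 bases before to 50 bases after a gene start, read 5′ to 3′ on the strand of the gene, with each copy of the core in capitals. The core was found once in the AMOTL2 window at chr3:134374398-134374697, and 2 times in the LINC02700 window at chr11:94637793-94638092. It was not found in the AMOTL1 window at chr11:94768106-94768405, which starts at a transcript inside the GENCODE gene.
AMOTL2: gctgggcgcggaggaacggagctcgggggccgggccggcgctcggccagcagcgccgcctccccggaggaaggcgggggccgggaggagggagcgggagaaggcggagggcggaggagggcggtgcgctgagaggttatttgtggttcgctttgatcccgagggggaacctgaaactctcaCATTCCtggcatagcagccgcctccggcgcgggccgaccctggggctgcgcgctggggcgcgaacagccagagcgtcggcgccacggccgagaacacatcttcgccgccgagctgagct
LINC02700: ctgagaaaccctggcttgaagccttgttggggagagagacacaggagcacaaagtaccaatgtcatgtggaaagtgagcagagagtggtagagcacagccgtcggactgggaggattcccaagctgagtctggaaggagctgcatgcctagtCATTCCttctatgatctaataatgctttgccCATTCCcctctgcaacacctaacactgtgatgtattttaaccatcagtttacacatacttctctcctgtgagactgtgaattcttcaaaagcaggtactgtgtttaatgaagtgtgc
AMOTL1: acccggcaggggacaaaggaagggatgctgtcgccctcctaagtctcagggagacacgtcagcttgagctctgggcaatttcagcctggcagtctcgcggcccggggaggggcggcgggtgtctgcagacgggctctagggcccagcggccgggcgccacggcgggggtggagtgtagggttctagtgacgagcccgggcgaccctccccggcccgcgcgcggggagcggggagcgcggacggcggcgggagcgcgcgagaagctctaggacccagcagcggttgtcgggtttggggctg

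The 2 copies of the LINC02700 window began 98 and 67 bases before the start on which that window is set. The copy of AMOTL2 began 69 bases before the start of its window, chr3:134374447. That start belongs to a transcript inside the GENCODE gene, which begins at chr3:134375479 on the minus strand. The core had no match in the AMOT window at chrX:112840782-112841081 or in a second AMOTL2 window at chr3:134375368-134375667. Among all 35116 windows of the same length, 4928 (14.03%) held at least 1 copy. The AP-1 motif TGANTCA, where N is any base, was in 7.71% of all windows and in no window of the members. A match of a few letters is a description of the sequence and not a binding site. The GC content was 72.7% in the AMOTL2 window with the match and 46.7% in the LINC02700 window.

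AJUBA was read first because it checks the labels. Levels are given as RPM, the reads of a gene per 1000000 counted reads of its library. AJUBA had 88.8 and 91.6 RPM in Parental, 83.4 and 81.6 RPM in shScrambled, and 89.6, 100.5 and 89.4 RPM in Control. It had 49.6, 47.3 and 53.5 RPM in shAjuba1, 60.3, 68.6 and 57.1 RPM in shAjuba2, and 549.7, 461.8 and 566.2 RPM in Ajuba OE. Every library moved in the direction of its label, with the deeper loss in shAjuba1. The AJUBA RNA of the Ajuba OE line includes the transgene. On the log2 scale AJUBA fell by 0.73 in shAjuba1 (quasi-likelihood test of edgeR, p adjusted over all genes after Benjamini and Hochberg, SE 0.0834, adjusted p = 2.19e-05) and rose by 2.56 in Ajuba OE (SE 0.115, adjusted p = 7.69e-05). Its difference of -0.46 in shAjuba2 did not pass an adjusted p of 0.05 (SE 0.131, adjusted p = 0.0773). The knockdown lines are thus separated from shScrambled by less than the Ajuba OE line is from Control.

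**Figure D1:**
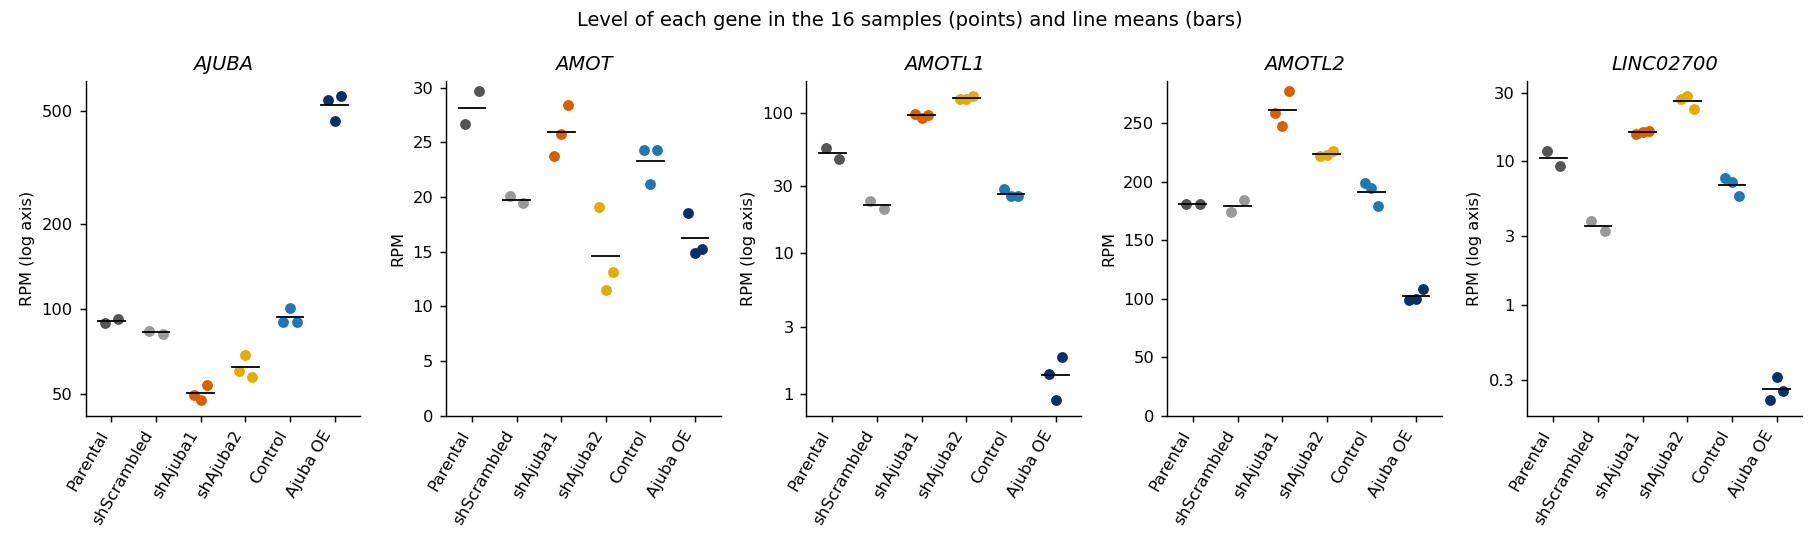
Level of AJUBA, AMOT, AMOTL1, AMOTL2 and LINC02700 in RPM in each of the 16 libraries (points) with the mean of each line (bars); the axes of AJUBA, AMOTL1 and LINC02700 are logarithmic and those of AMOT and AMOTL2 start at 0. AMOTL1 ranges from 0.896 RPM in Ajuba OE to 131 RPM in shAjuba2, and LINC02700 has the same order of lines, while AMOTL2 covers a narrower range and AMOT has its lowest library in shAjuba2.

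AMOTL1, the angiomotin that binds YAP at junctions much as AMOT does, had the widest range of the family. It had 56.0 and 46.8 RPM in Parental, 23.6 and 20.7 RPM in shScrambled, and 28.7, 25.4 and 25.7 RPM in Control. It had 98.5, 92.3 and 97.1 RPM in shAjuba1 and 125, 126 and 131 RPM in shAjuba2. It had 1.38, 0.896 and 1.84 RPM in Ajuba OE, from 96, 43 and 73 counts. No library of any line overlapped the range of another line. From the lowest, the lines stood in the order Ajuba OE, shScrambled, Control, Parental, shAjuba1 and shAjuba2, with each line above the one before it by 16.2, 1.201, 1.93, 1.87 and 1.33 times. The fitted difference was 4.29-fold higher in shAjuba1 (log2 2.10, SE 0.0966) and 5.57-fold higher in shAjuba2 (log2 2.48, SE 0.133) than in shScrambled. It was 18.8-fold lower in Ajuba OE than in Control (log2 -4.23, SE 0.228). Both knockdown comparisons share the 2 shScrambled libraries. Less RNA per cell and fewer cells with the RNA cannot be told apart in these bulk libraries. These are the contrasts that chose the gene. In them 38.4%, 7.63% and 5.43% of all genes tested passed an adjusted p of 0.05. The share of shAjuba2, 1713 genes, depended on single libraries, with 4983 genes without shAjuba2 replicate 2, 492 without shAjuba2 replicate 1, and 223 and 182 without shScrambled replicates 1 and 2.

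The order of AMOTL1 did not mirror that of AJUBA in every step. ShAjuba2 kept more AJUBA RNA than shAjuba1 (mean 62.0 ± 5.93 against 50.1 ± 3.12 RPM, SD, n = 3 each) but had more AMOTL1 RNA (128 ± 3.42 against 96.0 ± 3.29 RPM). Parental and Control had AJUBA levels with overlapping ranges, and AMOTL1 was 1.91-fold lower in Control than in Parental (log2 -0.94, SE 0.123). ShScrambled, a line with no Ajuba hairpin, had 2.33-fold less AMOTL1 than Parental (log2 of Parental over shScrambled 1.22, SE 0.0936). Among the lines without an Ajuba construct, AMOTL1 thus covered a range from 20.7 to 56.0 RPM. With Parental in place of shScrambled as the reference, the difference was 0.87 on the log2 scale in shAjuba1 and 1.25 in shAjuba2. With Parental in place of Control, the difference in Ajuba OE was -5.19.

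**Figure D2:**
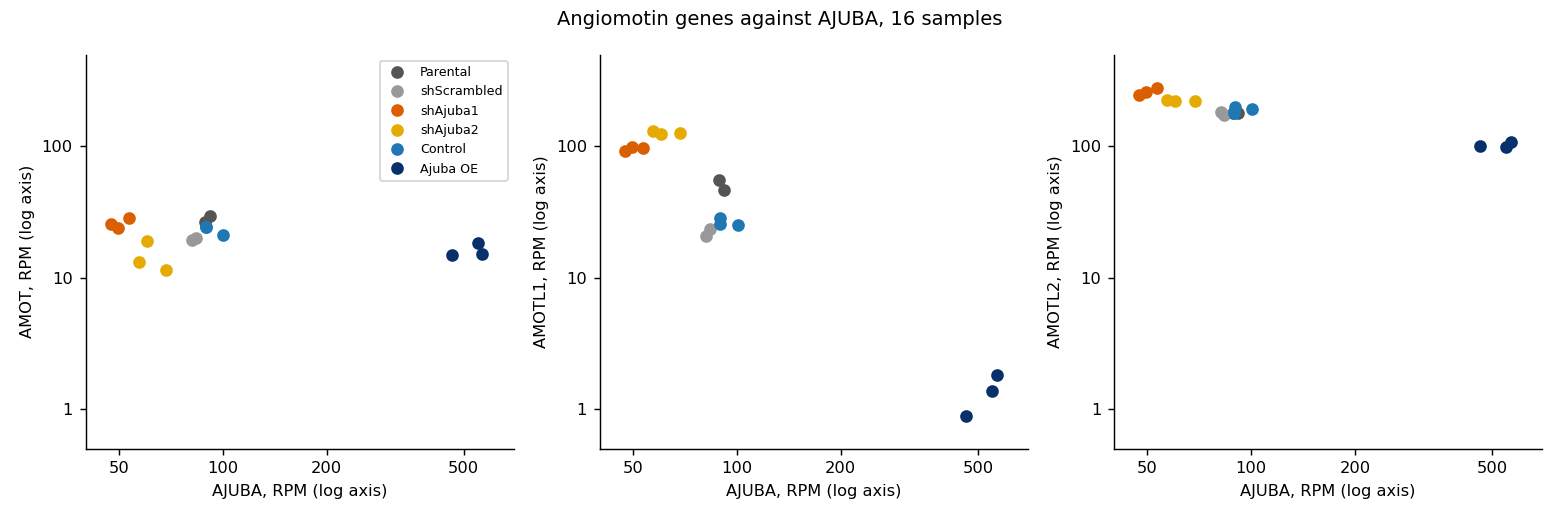
AMOT, AMOTL1 and AMOTL2 in RPM against AJUBA in RPM, both on logarithmic axes with the same vertical scale, 1 point per library and 1 colour per line. AMOTL1 drops to 0.896 to 1.84 RPM in the 3 Ajuba OE libraries, AMOTL2 stays between 98.5 and 277 RPM over all libraries, and the 5 lines other than Ajuba OE lie between 47.3 and 100.5 RPM of AJUBA.

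LINC02700 took the same order of lines as AMOTL1, at a lower level. It had 11.7 and 9.28 RPM in Parental, 3.81 and 3.26 RPM in shScrambled, and 7.57, 7.16 and 5.71 RPM in Control. It had 15.5, 15.8 and 16.1 RPM in shAjuba1, 27.1, 28.3 and 22.9 RPM in shAjuba2, and 0.215, 0.313 and 0.251 RPM in Ajuba OE, the last from 15, 15 and 10 counts. Again no 2 lines overlapped. The fitted difference against shScrambled was 4.45-fold higher in shAjuba1 (log2 2.15, SE 0.122) and 7.16-fold higher in shAjuba2 (log2 2.84, SE 0.175), and against Control it was 25.3-fold lower in Ajuba OE (log2 -4.66, SE 0.221). It was also higher in Parental than in shScrambled (log2 1.58, SE 0.148) and lower in Control than in Parental (log2 -0.61, SE 0.169). Measured from Parental, shAjuba1 differed by 0.57, shAjuba2 by 1.25 and Ajuba OE by -5.30.

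The count of LINC02700 was between 13.7% and 34.9% of the AMOTL1 count of the same library. Outside Ajuba OE it lay between 15.7% and 28.2%. It was 26.4%, 28.2% and 22.2% in Control and 16.1% and 15.8% in shScrambled, although these lines had similar AMOTL1 levels. The Ajuba OE values of 15.6%, 34.9% and 13.7% rest on 10 to 15 LINC02700 counts each. Both genes thus moved by similar but not equal factors between lines. Per kilobase of merged exon, LINC02700 had 3.40 ± 0.560 RPM per kb (RPKM, SD, n = 2) in Parental and AMOTL1 had 5.12 ± 0.648 RPKM.

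ENSG00000233536, the lncRNA that shares exon sequence with LINC02700, moved with both. It had 3.39 and 3.08 RPM in Parental, 1.18 and 1.37 RPM in shScrambled, and 2.39, 2.59 and 1.75 RPM in Control. It had 6.57, 5.77 and 4.83 RPM in shAjuba1, 7.31, 8.85 and 8.01 RPM in shAjuba2, and 0.187, 0.188 and 0.151 RPM in Ajuba OE. Its log2 differences were 2.14 and 2.60 in the knockdown lines and -3.58 in Ajuba OE. How reads over the shared exon were counted is not stated, so independence of these values from those of LINC02700 is not assumed.

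The other genes around AMOTL1 were examined to see how far along the chromosome such differences reached. Among the counted genes, 63 annotated ones, LINC02700 among them, had a start or end within 1 Mb of AMOTL1. Without LINC02700, 27, 28 and 27 of them passed the filter on low counts in the 3 comparisons. In Ajuba OE, where 3.03% of all genes tested were lower and 2.39% higher, 1 of the 27 passed the edgeR test, ENSG00000233536, and the other 26 had log2 differences between -0.68 and 0.18. In shAjuba1 6 were higher and 6 lower, where 18.2% and 20.2% of all genes tested were. In shAjuba2 2 were higher and 2 lower, where 3.19% and 4.44% of all genes were. ENSG00000233536 was among the higher genes in both knockdown comparisons. It shares exon bases with LINC02700, which was selected for this course, so its calls are a description and not a test. None of the other 26 neighbours tested in Ajuba OE had a difference there of the size seen for AMOTL1 and LINC02700. The 35 neighbours that were not tested in that comparison had line means of at most 0.21 RPM in Ajuba OE and Control, and 18 of them were at 0 in Ajuba OE and 19 in Control. Counts this low cannot show whether any of these 35 shared the course of AMOTL1.

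Apart from ENSG00000233536, the neighbours with the largest differences in shAjuba1 were PANX1, GPR83, KDM4D, PIWIL4 and FUT4. PANX1, which encodes a pannexin channel, rose by 1.19 on the log2 scale in shAjuba1 (adjusted p = 8.52e-07) and had 0.43 in shAjuba2 and 0.08 in Ajuba OE, neither past the threshold. The mean of PANX1 was 40.7 RPM in Parental, 22.2 RPM in shScrambled and 51.2 RPM in shAjuba1. PIWIL4, which encodes a PIWI protein and lies between PANX1 and LINC02700, rose in shAjuba1 (0.79) and in shAjuba2 (0.62, adjusted p = 0.0419) and had 0.08 in Ajuba OE. FUT4, a fucosyltransferase gene inside the span of PIWIL4, rose by 0.67 in shAjuba1 and had 0.26 and 0.18 in the other comparisons. GPR83, a G protein-coupled receptor gene with 10 to 68 counts, fell by 1.16 in shAjuba1 and also fell in shAjuba2 (edgeR adjusted p = 0.0340). Its mean was 1.33 RPM in shScrambled, 0.605 RPM in shAjuba1 and 0.595 RPM in shAjuba2. Parental, with 0.632 RPM, lay near the knockdown lines. The calls of PIWIL4 and GPR83 in shAjuba2 were each lost in 4 of 5 fits with 1 replicate left out, those without shScrambled replicate 1 or 2 or shAjuba2 replicate 1 or 3. Of the 4 neighbours called there, the 1 that passed in all 5 of these fits was ENSG00000233536. Its calls are no support, because it overlaps LINC02700, which was selected for this course. KDM4D, which encodes a histone demethylase, rose by 1.05 in shAjuba1. Its mean was 2.63 RPM in Parental, 1.67 RPM in shScrambled and 3.45 RPM in shAjuba1. For PIWIL4 and FUT4 Parental was nearer to shScrambled (6.02 against 5.41 RPM, and 34.7 against 31.7 RPM). In shAjuba2 the pseudogene ST13P11, named here after its value was seen, had a log2 difference of 2.56 with an SE of 0.71, from 0 to 11 counts, and did not pass (adjusted p = 0.0725).

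**Figure D3:**
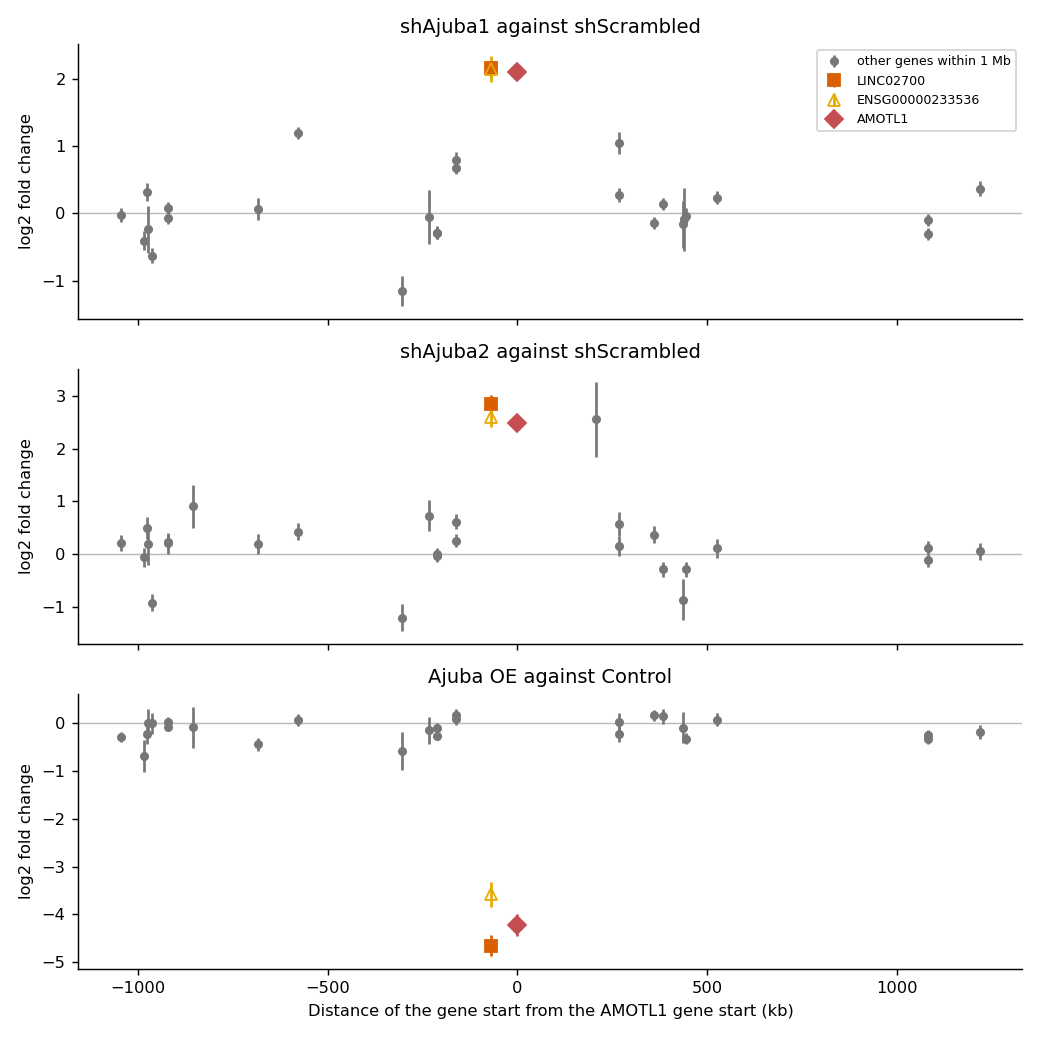
Log2 fold change (vertical axis, bars are SE) of each tested gene within 1 Mb of AMOTL1 against the distance of its start from the start of AMOTL1 in kilobases, for shAjuba1, shAjuba2 and Ajuba OE against their control lines. AMOTL1, LINC02700 and ENSG00000233536 stand apart at -3.58 or lower in Ajuba OE, where the other 26 neighbours lie between -0.68 and 0.18; in shAjuba2 the isolated point at 2.56 is ST13P11, with 0 to 11 counts.

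AMOTL2, the angiomotin that is induced by YAP and TEAD and also links junctions to actin, was the most abundant of the 3 by exon length in every line. It had 181 RPM in both Parental libraries, 174 and 184 RPM in shScrambled, and 199, 194 and 179 RPM in Control. It had 259, 247 and 277 RPM in shAjuba1, 222, 223 and 226 RPM in shAjuba2, and 98.5, 99.9 and 108 RPM in Ajuba OE. The ranges of the 3 lines without an Ajuba construct overlapped, both knockdown lines lay above them, and Ajuba OE lay below all other lines. AMOTL2 rose 1.44-fold in shAjuba1 (log2 0.53, SE 0.0820, edgeR adjusted p = 2.72e-04) and fell 1.78-fold in Ajuba OE (log2 -0.83, SE 0.0965, adjusted p = 0.00294). In shAjuba2 it was 1.21-fold higher (log2 0.27, SE 0.120) and did not pass (adjusted p = 0.199), although its ranges did not overlap those of shScrambled. With all 16 samples in 1 fit that difference was 0.28 and passed (adjusted p = 0.0439).

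The control lines did not differ detectably in AMOTL2. Parental and shScrambled differed by 0.02 on the log2 scale (SE 0.0765, adjusted p = 0.875), where 30.7% of all genes passed, and Control and Parental by 0.09 (SE 0.105, adjusted p = 0.650), where 0.370% passed. AMOTL2 was 1.17-fold higher in shAjuba1 than in shAjuba2 by mean RPM, and the fitted difference of 0.27 (SE 0.107) did not pass (adjusted p = 0.105), where 19.6% of all genes did. Against Parental the log2 difference of AMOTL2 kept its direction and its call in shAjuba1 and in Ajuba OE.

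AMOT, the founding angiomotin, took a different course. It had 26.7 and 29.7 RPM in Parental, 20.1 and 19.4 RPM in shScrambled, and 24.3, 21.2 and 24.3 RPM in Control. It had 23.8, 25.8 and 28.4 RPM in shAjuba1, 19.1, 11.5 and 13.2 RPM in shAjuba2, and 18.5, 14.9 and 15.2 RPM in Ajuba OE. ShAjuba2 and Ajuba OE overlapped at the low end, Control, shAjuba1 and Parental overlapped at the high end, and shScrambled lay between them. The spread within shAjuba2 was the widest of the 6 lines (14.6 ± 4.01 RPM, SD, n = 3).

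AMOT rose 1.30-fold in shAjuba1 against shScrambled (log2 0.38, SE 0.101, edgeR adjusted p = 0.00995). That call was lost without either shScrambled replicate (adjusted p = 0.0599 and 0.110), and against Parental the difference was -0.15 (adjusted p = 0.267). In shAjuba2 AMOT had a log2 difference of -0.49 (SE 0.203) that did not pass (adjusted p = 0.178), and without 1 replicate at a time it ranged from -0.70 to -0.36. In Ajuba OE the 3 libraries lay below all Control libraries, and the log2 difference of -0.46 did not pass either (SE 0.115, adjusted p = 0.0672). The knockdown lines themselves differed, with AMOT 1.85-fold higher in shAjuba1 than in shAjuba2 (log2 0.88, SE 0.177, adjusted p = 0.00752). AMOT was also higher in Parental than in shScrambled (log2 0.52, SE 0.0916, adjusted p = 1.29e-04), a difference between control lines larger than that in shAjuba1. With all 16 samples in 1 fit neither call held, with 0.54 in Parental against shScrambled (adjusted p = 0.0867) and 0.40 in shAjuba1 (adjusted p = 0.1004). Control and Parental differed by -0.26 (SE 0.119, adjusted p = 0.275).

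The members were also compared per kilobase of exon, which puts the 3 angiomotins on one scale within a library. By line means AMOTL2 made up 76.8% of the summed RPKM of the 3 genes in Parental, 85.9% in shScrambled and 84.5% in Control. Its share was 76.1% in shAjuba1 and 70.5% in shAjuba2, while Ajuba OE had 88.5%. AMOTL1 held 14.1% in Parental, 6.88% in shScrambled and 7.61% in Control, against 18.1% and 26.0% in the knockdown lines and 0.760% in Ajuba OE. For AMOT the shares were 9.11%, 7.21% and 7.86% in the lines without an Ajuba construct, 5.77% and 3.50% in the knockdown lines and 10.7% in Ajuba OE. AMOT thus lay above AMOTL1 in Ajuba OE, below it in Parental, shAjuba1 and shAjuba2, and in an overlapping range in shScrambled and Control.

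The summed level of the 3 angiomotins was 36.3 ± 0.379 RPKM (SD, n = 2) in Parental, 32.2 ± 0.924 (n = 2) in shScrambled and 34.8 ± 1.64 (n = 3) in Control. It was 52.9 ± 2.69 RPKM (n = 3) in shAjuba1, 48.9 ± 0.569 (n = 3) in shAjuba2 and 17.8 ± 0.760 (n = 3) in Ajuba OE. Both knockdown lines lay above and Ajuba OE below all lines without an Ajuba construct. Since AMOTL1 is 1 of the 3 genes and was picked for its course, the sum is a description. The AMOTL2 part alone was 40.3 ± 2.30 RPKM in shAjuba1 and 34.5 ± 0.319 RPKM in shAjuba2 against 27.6 ± 1.19 RPKM in shScrambled, and 15.8 ± 0.820 RPKM in Ajuba OE against 29.4 ± 1.55 RPKM in Control.

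**Figure D4:**
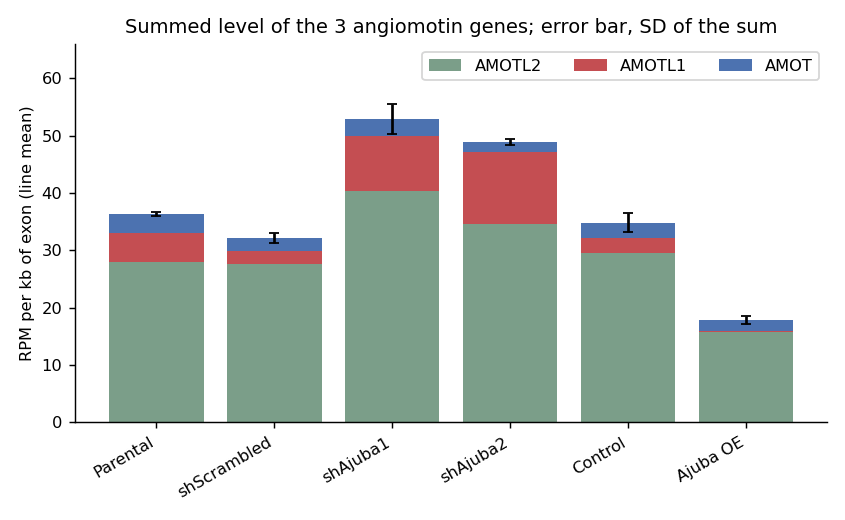
Mean level of AMOTL2, AMOTL1 and AMOT per line in RPM per kilobase of merged exon (RPKM), stacked; the error bar is the SD of the sum over the libraries of a line (n = 2 or 3). The stack is highest in shAjuba1 (52.9 RPKM) and lowest in Ajuba OE (17.8 RPKM), and the AMOTL1 share goes from 0.760% in Ajuba OE to 26.0% in shAjuba2.

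Genes with the most similar course were sought by the Pearson correlation of log2 CPM (counts scaled by library size and TMM) over the 16 libraries, among 14581 genes with a symbol and a mean of at least 1 RPM. The libraries fall into 6 lines and Ajuba OE stands apart, so a high r mostly describes the order of line means. AMOTL1 and LINC02700 were both selected in these libraries for running against Ajuba. That choice favours a high r between them, so their r is a description and not a test. The genes most like AMOTL1 were ALPK2 (r = 0.989), an alpha kinase gene, LINC02700 (r = 0.988), and DLG1 (r = 0.987), a polarity scaffold of the Scribble complex. For LINC02700 they were DLG1 (r = 0.991), AMOTL1 and ALPK2 (r = 0.988). The mean of ALPK2 was 44.7 RPM in shAjuba1 and 60.3 RPM in shAjuba2 against 18.3 RPM in shScrambled, and 0.984 RPM in Ajuba OE against 18.8 RPM in Control. In Parental ALPK2 had 26.5 RPM and DLG1 had 290 RPM. DLG1 covered a narrower range, with 317 and 352 RPM in the knockdown lines against 257 RPM in shScrambled, and 149 RPM in Ajuba OE against 275 RPM in Control.

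AMOTL2 ranked 52nd of these genes for likeness to AMOTL1 (r = 0.949). Its own nearest genes were C2CD3 (r = 0.971), a centriole gene, KCND3 (r = 0.967), a potassium channel gene, and CDH11 (r = 0.965), a cadherin of mesenchymal cells. The mean of CDH11 was 152 RPM in shAjuba1 and 109 RPM in shAjuba2 against 30.1 RPM in shScrambled, and 3.89 RPM in Ajuba OE against 36.3 RPM in Control. Parental had 67.7 RPM of CDH11, above shScrambled and Control. AMOT was little correlated with AMOTL1 (r = 0.166) or AMOTL2 (r = 0.268). Among the genes most like AMOT were ILRUN (r = 0.899) and SGPL1 (r = 0.897), which encodes a sphingosine phosphate lyase. The mean of SGPL1 was 177 RPM in Parental and 95.5 RPM in shAjuba2.

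The genes that act with angiomotins were counted by the same fits, with the background shares given above. Of the 17 Hippo kinases and adaptors 3 rose and 6 fell in shAjuba1, 1 rose in shAjuba2 and 3 fell in Ajuba OE. Their median log2 difference was -0.13, 0.06 and -0.12, against -0.01 for all genes tested in each comparison. FRMD6, a FERM protein upstream of the kinases, passed in all 3: it rose by 0.48 in shAjuba1 and 0.70 in shAjuba2 and fell by 2.03 in Ajuba OE. Its mean was 131 RPM in both Parental and shAjuba1, 92.6 RPM in shScrambled and 156 RPM in shAjuba2. The rise in shAjuba1 was thus not seen beside the Parental level. The rise in shAjuba2 (edgeR adjusted p = 0.0315) was the 1 call of the list there, and it was lost in 4 of 5 fits with 1 replicate left out, without shScrambled replicate 1 or 2 or shAjuba2 replicate 1 or 3. In shAjuba1 it was lost without shScrambled replicate 2. The kinase gene LATS2, itself a YAP target, rose by 0.37 in shAjuba1 and fell by 0.44 in Ajuba OE, with 0.20 in shAjuba2 not passing. The fall of LATS2 in Ajuba OE (adjusted p = 0.0330) was lost in all 6 fits with 1 replicate left out, and its rise in shAjuba1 without shScrambled replicate 2. MOB1B, a LATS cofactor, fell by 1.36 in shAjuba1, and WWC1, which encodes the scaffold KIBRA, rose by 0.97 there. The means in Parental, shScrambled and shAjuba1 were 45.7, 41.0 and 53.6 RPM for LATS2 and 65.3, 81.5 and 32.2 RPM for MOB1B. For WWC1 they were 142, 102 and 201 RPM.

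Of the 7 YAP, TAZ and TEAD genes, which encode the factors that angiomotins restrain, 3 rose and 2 fell in shAjuba1. TEAD1 fell by 0.93, TEAD4 rose by 0.73, WWTR1, which encodes TAZ, rose by 0.46, and the TEAD cofactor VGLL4 fell by 0.32, a call that was lost without shScrambled replicate 1 or 2. The means in Parental, shScrambled and shAjuba1 were 528, 743 and 394 RPM for TEAD1 and 57.0, 43.1 and 72.2 RPM for TEAD4. For WWTR1 they were 63.1, 64.6 and 89.9 RPM, and for VGLL4 26.8, 32.7 and 26.4 RPM. None of the 7 passed with edgeR or with DESeq2 in shAjuba2 or in Ajuba OE, where 0 and 1 had an unadjusted p under 0.05. YAP1 passed in none of the 3 comparisons, with log2 differences of 0.15, 0.02 and 0.13. Of the other LIM proteins of the family, WTIP rose by 0.91 in shAjuba1 and fell by 0.71 in Ajuba OE, with 0.55 in shAjuba2 not passing, and LIMD1 passed in none (0.18, 0.24 and 0.11). The fall of WTIP in Ajuba OE (edgeR adjusted p = 0.0475) was lost with DESeq2 size factors and in 5 of 6 fits with 1 replicate left out, all but that without Control replicate 1.

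Of the polarity and junction scaffolds that bind angiomotins, 11 of 12 could be tested, and MPDZ was too low. In shAjuba1 1 rose and 4 fell, among them PALS1 (-0.38), CRB3 (-0.91), MAGI3 (-0.86) and PATJ (-0.67), the partners of angiomotins at tight junctions. In shAjuba2 none passed with edgeR, 1 had an unadjusted p under 0.05, and 1 passed with DESeq2. In Ajuba OE PALS1 had a log2 difference of -0.64 that just passed (edgeR adjusted p = 0.0368), and the other 10 did not pass. That call was lost with DESeq2 size factors and in 5 of 6 fits with 1 replicate left out, all but that without Control replicate 2. In shAjuba1 the call of PALS1 was lost without shScrambled replicate 1 and with all 16 samples in 1 fit. Of the 8 enzymes that modify or degrade angiomotins, 4 fell in shAjuba1: the ubiquitin ligases NEDD4 (-0.60), RNF146 (-0.43) and ITCH (-0.34), and the tankyrase TNKS (-0.38). The calls of RNF146, ITCH and TNKS were lost without shScrambled replicate 1, and that of ITCH also with all 16 samples in 1 fit. No enzyme passed among the 8 tested in shAjuba2 or the 7 tested in Ajuba OE with edgeR or DESeq2, and none had an unadjusted p under 0.05. The ubiquitin ligase gene HECW2 was too low to be tested in Ajuba OE, with a mean of 0.062 RPM against 0.260 RPM in Control.

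Of the targets of YAP and TAZ other than AMOTL2, 20 could be tested in shAjuba1 and 21 in the other comparisons. In shAjuba1 6 rose and 7 fell, in shAjuba2 2 rose and 3 fell, and in Ajuba OE none rose and 10 fell. The median log2 difference was -0.13, 0.16 and -0.44, against -0.01 for all genes tested. CCN2, a matricellular protein and a standard readout of YAP, fell in all 3 (-0.98, -0.56 and -1.43). Its fall in shAjuba2 (edgeR adjusted p = 0.0329) was lost without shScrambled replicate 1 or 2 or shAjuba2 replicate 1, and with library size alone. Of the 5 targets called in shAjuba2, 1 passed in every fit with 1 replicate left out. In shAjuba1 9 of 13 did so, and in Ajuba OE 8 of 10. LATS2 and PTPN14, both lower in Ajuba OE, are also counted among the Hippo kinases and adaptors. CCN1, another target of the list, had -0.02 in shAjuba1 and 0.10 in shAjuba2, neither past the threshold, and passed with -1.47 in Ajuba OE. AXL, a receptor kinase, fell in shAjuba1 and Ajuba OE (-0.84 in both), and TGFB2 did so by 0.71 and 1.34. NT5E, which encodes CD73, fell by 1.12 in shAjuba1 and by 1.51 in Ajuba OE, and its 0.67 in shAjuba2 did not pass. The means in Parental, shScrambled and shAjuba1 were 25.9, 56.3 and 26.2 RPM for NT5E and 10.4, 16.4 and 10.1 RPM for TGFB2. For AXL they were 159, 245 and 138 RPM, and for CCN2 24.0, 30.4 and 15.5 RPM. In NT5E and TGFB2 shAjuba1 thus lay near Parental. In Ajuba OE AMOTL2 thus moved in the direction of the targets that passed, whereas in shAjuba1, where it rose, 6 of the targets that passed rose with it and 7 fell. Those that rose were NUAK2 (1.87), FOXF2 (0.80), F3 (0.63), FJX1 (0.53), LATS2 (0.37) and CRIM1 (0.34). Of these targets 2 rose and 10 fell in Parental against shScrambled, lines without an Ajuba construct, where AMOTL2 differed by 0.02. Of all genes tested there, 30.7% passed in either direction. That was 6526 genes, against 1696 with all 16 samples in 1 fit.

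**Figure D5:**
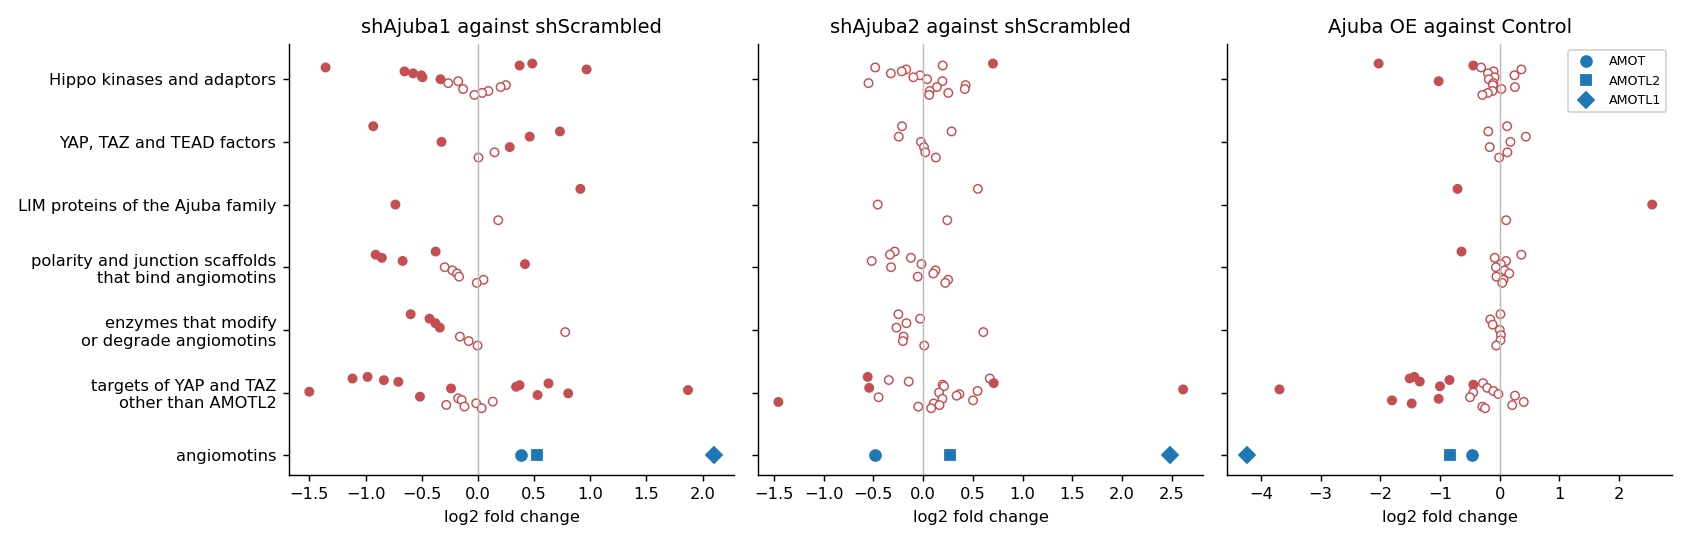
Log2 fold change of the genes of each list in shAjuba1, shAjuba2 and Ajuba OE against their control lines; filled red points passed an adjusted p of 0.05 and open points did not, and blue symbols mark the 3 angiomotins without showing a test. In Ajuba OE the points of the YAP and TAZ targets that passed all lie below 0, as do the angiomotins, and AMOTL1 lies farthest from 0 of the angiomotins in every panel.

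The markers of the cell type were read in the same libraries, which held 30132396 to 69684675 counts. Of 8 epithelial and colon markers, 7 had at least 1 RPM in every library, and CDH17 had 0.101 to 1.34 RPM. Of 6 fibroblast markers, 4 were below 1 RPM in all libraries, with COL3A1, DCN and LUM at 0 in at least 1 of them. The summed level of the fibroblast markers, nearly all COL1A1 and PDGFRB, moved with the Ajuba OE line: it was 6.21 to 10.4 RPM there and 15.6 to 24.6 RPM in Control. It was 25.0 to 37.6 RPM in shAjuba2, 18.1 to 22.6 RPM in shAjuba1 and 22.4 to 22.8 RPM in shScrambled. The summed epithelial and colon markers were lower in shScrambled (4064 to 4204 RPM) than in Parental (6092 to 6607 RPM) and shAjuba1 (4997 to 5206 RPM), and they had their widest range in shAjuba2 (2902 to 5495 RPM). They were 4851 to 5968 RPM in Control and 5754 to 7008 RPM in Ajuba OE. Most of this sum was KRT8 (1487 to 3165 RPM over all libraries) and KRT18 (1152 to 2847 RPM). EPCAM had 48.3 to 242 RPM and KRT19 193 to 639 RPM. CDX2 had 7.40 to 26.8 RPM, VIL1 8.88 to 59.1 RPM and CDH1 3.92 to 36.2 RPM. The summed endothelial markers were 5.07 to 5.45 RPM in shScrambled, the reference of both knockdown comparisons, and 2.28 to 3.09 RPM in the other lines. The part of these markers in the differences of the angiomotins was not tested. Of 5 endothelial markers 4, and of 5 leukocyte markers 3, were below 1 RPM in all libraries, and the leukocyte marker PTPRC did not exceed 0.0645 RPM.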

How the data were processed

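Poly(A) RNA of SW480 lines was sequenced as paired-end reads from a strand-marking kit. HISAT2 was used by the authors for alignment to hg38 and featureCounts for counting pairs over the exons of each gene, and they deposited 1 table of raw counts for 16 samples. No strand option is given among the counting settings, so sense and antisense reads may not be separated. Samples were grouped by their labels into 6 lines. Symbols, positions and merged exon lengths were taken from GENCODE release 44, which held 56434 of the 66023 gene identifiers and 99.8% of the counts. Total counts per library, 30132396 to 69684675, gave RPM, and RPKM is RPM per kilobase of merged exon. An interval from depth was not needed, since every value of a member comes with its replicates. No pair of replicates agreed within counting noise (median chi-square per gene 1.87 to 14.26 times its expectation over 14 pairs).

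Lines were compared with the quasi-likelihood test of edgeR 4.0.16 in R 4.3.3 on the deposited counts of the 2 lines concerned, with TMM scaling, filterByExpr and Benjamini-Hochberg adjustment over all genes tested, and the threshold was an adjusted p of 0.05. The fit was tested on simulated counts with known changes. Alternatives were other scaling, no filter, DESeq2 1.42.0, all 16 samples in 1 fit, the replicate number as a block, Parental as the reference, and leaving out each replicate. The study ran its 3 comparisons with DESeq2.

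The members and gene lists were chosen with earlier results of these data known. Named genes were the members, AJUBA, the 3 genes most correlated with each member, up to 4 genes of each list that passed in most comparisons, ties by size in shAjuba1, and the 6 neighbours of AMOTL1 with the largest difference in shAjuba1. Genes outside this rule (YAP1, LIMD1, MPDZ, HECW2, PTPN14, the targets that rose in shAjuba1, ST13P11, RPL39P5 and ENSG00000256469) were named to account for a count or an overlap. CCN1, also outside it, was named after its values were seen, to stand beside CCN2. An item that the rule names is not reported here. Promoter sequences were matched to all 4 members by symbol in the RefSeq table.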

Additional observations from a re-analysis of the deposited data

Results flagged for a closer look

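AMOT differed between the 2 Ajuba knockdown lines, each of which was compared with the same shScrambled libraries. It rose in shAjuba1 (log2 0.38, edgeR adjusted p = 0.00995) and had a difference of -0.49 in shAjuba2 that did not pass (adjusted p = 0.178). Tested directly, shAjuba1 was higher than shAjuba2 by 0.88 on the log2 scale (SE 0.177, adjusted p = 0.00752), and each of the 3 shAjuba1 libraries (23.8 to 28.4 RPM) lay above each of the 3 shAjuba2 libraries (11.5 to 19.1 RPM). Without 1 replicate at a time the difference ranged from 0.75 to 1.11, with adjusted p between 0.00254 and 0.0438. The hairpin, the AJUBA level and the line differ together and cannot be told apart.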

How the results depend on the processing

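Depth does not limit the members other than in Ajuba OE, where AMOTL1 and LINC02700 had 10 to 96 counts per library. Among the members' differences, 142 under other settings and 114 with a replicate left out kept their direction and side of the threshold or, without a test, moved by less than 1 SD. Of the rest under other settings, 6 moved by 1 SD or more, 1 reversed, 5 gained a pass and 2 lost it. Those 6 are AMOTL1 and LINC02700 against Parental. Of the rest with a replicate left out, 6 moved by 1 SD or more, 1 reversed, 1 gained a pass and 2 lost it. With all 16 samples, AMOT had 0.40 in shAjuba1 (no longer past, adjusted p = 0.1004) and 0.54 in Parental against shScrambled (no longer past, 0.0867), while AMOTL2 passed in shAjuba2 (0.28) and in shAjuba1 against shAjuba2 (0.26). With Parental as the reference, AMOT had -0.15 in shAjuba1, -1.02 in shAjuba2 (past, adjusted p = 0.0332) and -0.75 in Ajuba OE (past, 0.0128); AMOTL1 had 0.87, 1.25 and -5.19; LINC02700 had 0.57, 1.25 and -5.30. The cause of these changes was not tested. Without a shScrambled replicate, AMOT in shAjuba1 was not past (range over replicates 0.32 to 0.44), AMOTL1 ranged over 2.00 to 2.22 in shAjuba1 and 2.38 to 2.58 in shAjuba2, and LINC02700 over 2.03 to 2.28 in shAjuba1. AMOTL2 in Parental against shScrambled ranged from -0.0073, without shScrambled replicate 1, to 0.065, and in shAjuba1 against shAjuba2 from 0.24 to 0.30, past without shAjuba2 replicate 2 (0.28).

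The labels give same-numbered replicates only a shared number, and whether they were handled together was not tested. The deviations of single pairs from their line means correlated at -0.131 to 0.505. The highest was in Ajuba OE against Control, where another pair had -0.0492 and 2 of 6 samples correlated best with their own number. In shAjuba2 against shScrambled the pairs had 0.0690 and 0.188, and 4 of 4 samples correlated best with their own number. No comparison had every pair above 0.1. The replicate number as a block made AMOT pass in Ajuba OE (-0.46, adjusted p = 0.00130) and changed no other call of a member. The block raised the genes past the threshold from 1713 to 5377 in shAjuba2, from 1147 to 5140 in Ajuba OE and from 80 to 318 in Control against Parental; the list counts to 6 (Hippo), 2 (LIM), 2 (scaffolds) and 9 (targets) in shAjuba2 and to 9 (Hippo), 2 (YAP, TAZ and TEAD), 2 (scaffolds) and 18 (targets) in Ajuba OE; and the neighbours of AMOTL1 in Ajuba OE from 1 to 8. Neighbour counts under the alternatives were added after seeing the data.

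All 16 samples in 1 fit gave 3672 genes in shAjuba2, 2386 in Ajuba OE, 1696 (from 6526) in Parental against shScrambled and 530 in Control against Parental, with list counts of 3 (Hippo), 2 (LIM), 2 (scaffolds) and 8 (targets) in shAjuba2, 5 (Hippo) in Ajuba OE, and 3 neighbours in Ajuba OE. No filter gave 3210 genes in shAjuba2 and 1947 in Control against Parental, and DESeq2 470 in the latter; in shAjuba2 both gave 3 (Hippo), 1 (LIM) and 1 (scaffolds), and library size alone 1 (LIM). DESeq2 size factors gave 1 (LIM) and 0 (scaffolds) in Ajuba OE. Leaving out 1 replicate at a time, the genes past the threshold ranged over 4711 to 9695 in shAjuba1, 182 to 4983 in shAjuba2 (highest without shAjuba2 replicate 2, lowest without shScrambled replicate 2), 412 to 988 in Ajuba OE, 3010 to 5369 in Parental against shScrambled, 14 to 985 in Control against Parental and 2177 to 5961 in shAjuba1 against shAjuba2. The Hippo list ranged over 0 to 5 in shAjuba2, YAP, TAZ and TEAD over 3 to 6 in shAjuba1 and 0 to 1 in shAjuba2, LIM over 0 to 2 in shAjuba2 and 1 to 2 in Ajuba OE, scaffolds over 0 to 1 in both, enzymes over 1 to 4 in shAjuba1, targets over 1 to 11 in shAjuba2, and the neighbours over 7 to 15 in shAjuba1 and 1 to 8 in shAjuba2.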
